A study of Mus musculus with 15 samples.

Results

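A set of 10 genes of the p53 response and of cell cycle arrest were followed across 5 related mouse mammary epithelial cell lines: Trp53, Mdm2, Cdkn1a, Cdkn2a, Cdkn2b, Ccng1, Plk2, Gadd45b, Fas and Eda2r. All probe sets whose single gene symbol was one of these names were taken. They were 17 of 34945 probe sets with 1 symbol, and they measured 9 of the 10 genes, out of 18193 genes in all. No probe set carried Trp53 as its symbol, alone or with other genes, so Trp53 itself was not analysed here.

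RNA was measured on Affymetrix 3' expression arrays, 3 for each line. L2P was recovered from lungs of mice that had been injected with L1P cells, and so had passed through mice 2 times. L1P came from lungs after fat pad injection of E1KD cells, and M1P from the tumour that such cells formed in the mammary fat pad, each with 1 passage through mice. E1KD is NMuMG in which the RNA-binding protein hnRNP E1 (gene Pcbp1) was silenced, without passage through mice. NMuMG is the wild-type, non-tumorigenic mammary gland line. All of L2P, L1P, M1P and E1KD carry the silencing, the host mice were NOD/SCID, and all lines were grown in the same serum-containing medium. Each is a single line, no control vector line was among the samples, and whether the 3 arrays of each line stem from separate cultures is not given. The p-values therefore measure the spread between these arrays, which may be technical.

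p53 is a transcription factor that accumulates after DNA damage and other stress and switches on genes that halt the cell cycle, repair DNA or trigger cell death. One of these genes, Mdm2, encodes the ubiquitin ligase that marks p53 for degradation, which closes a feedback loop. Cell cycle arrest also runs through inhibitors of the cyclin-dependent kinases, of which Cdkn1a is a classical p53 target, while Cdkn2a and Cdkn2b lie side by side on chromosome 4 and are commonly lost or silenced in tumours.

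Promoter sequence was searched for the p53 half-site consensus, the motif to which p53 binds in adjoining pairs, because the genes are grouped here by their link to p53. RefSeq starts on GRCm38.p6 gave 12 promoters for the 10 genes, 2 each for Cdkn1a and Cdkn2a, and the 250 bases before each start were searched on both strands. An exact half-site of 10 bases stood in 4 of the 12, for Mdm2, Ccng1, Cdkn1a and Trp53, against 7.13% of all 32851 promoters of that length. An adjoining pair of half-sites with at most 1 mismatch in its 20 bases stood before Ccng1 and before the first start of Cdkn1a, against 0.06% of all promoters, and in each it contains 1 of the exact half-sites. The 3 measured genes with a match are printed 5′ to 3′ along the gene's strand, with the matches in capitals. The Mdm2 window is chr10:117710759-117711008 on the minus strand, the Ccng1 window chr11:40755287-40755536 on the minus strand, and the Cdkn1a window chr17:29090729-29090978 on the plus strand.
Mdm2: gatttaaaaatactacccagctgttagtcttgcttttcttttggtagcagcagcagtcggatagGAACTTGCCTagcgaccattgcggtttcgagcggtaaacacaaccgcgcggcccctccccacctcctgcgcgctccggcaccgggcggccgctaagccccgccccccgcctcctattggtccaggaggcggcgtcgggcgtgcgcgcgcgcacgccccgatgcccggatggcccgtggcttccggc
Ccng1: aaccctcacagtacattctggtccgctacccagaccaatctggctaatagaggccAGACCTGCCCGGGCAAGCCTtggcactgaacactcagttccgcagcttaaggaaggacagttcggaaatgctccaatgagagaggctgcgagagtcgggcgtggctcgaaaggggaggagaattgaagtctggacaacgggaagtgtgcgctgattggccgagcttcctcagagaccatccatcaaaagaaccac
Cdkn1a: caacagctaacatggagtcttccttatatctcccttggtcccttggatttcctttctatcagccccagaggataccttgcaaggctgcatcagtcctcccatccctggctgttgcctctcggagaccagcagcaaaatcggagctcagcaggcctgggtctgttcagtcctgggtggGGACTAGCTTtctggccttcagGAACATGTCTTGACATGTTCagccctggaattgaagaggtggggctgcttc
The Mdm2 half-site begins 186 bases before the start and the Ccng1 pair 195 bases before it. In Cdkn1a the single half-site begins 73 and the pair 51 bases before the start. The windows of Plk2, Gadd45b, Fas, Eda2r, Cdkn2a and Cdkn2b and of the second start of Cdkn1a held no such letters. Sequence outside these windows was not searched, so a window without a match does not mean a gene without a p53 site.

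Values are log2 signals per probe set, on which a difference of 1 is a doubling. Adjusted p-values come from limma over all 18193 genes, and a gene is said to have risen or fallen where its adjusted p was under 0.05. Where a gene had several probe sets, the one with the highest mean over all arrays stands for it, and signals of different probe sets are not set against each other as levels. Pcbp1 checked the labels: its log2 signal was 7.95 to 10.09 on the 12 arrays of silenced lines, against 12.57 to 12.76 on the NMuMG arrays. By line it was 9.41 to 10.09 in M1P, 8.99 to 9.4 in E1KD, 8.01 to 8.78 in L1P and 7.95 to 8.3 in L2P. The silenced lines were thus not equal in Pcbp1 signal, and the part of this in the members' values was not tested. The M1P arrays scattered more than those of any other line. Their correlations with each other were 0.93 to 0.978, against at least 0.979 within each of the other 4 lines, and the median SD over genes was 0.32 in M1P, against 0.14 to 0.19 in the others. The proliferation gene Mki67 had log2 signals of 6.48, 7.27 and 10.20 on M1P arrays 1, 2 and 3, against 10.58 to 11.68 on the E1KD arrays. On NMuMG arrays 1, 2 and 3 it was 10.31, 7.75 and 8.67, also scattered and below every E1KD array. The 3′ minus 5′ difference of the Actb control probes, a sign of RNA degradation where large, was 0.64 to 0.77 on M1P arrays, against 0.68 to 0.98 on the others, and that of the Gapdh control probes 0.25 to 0.45, against 0.19 to 0.41. The epithelial marker Cdh1 was at 10.15 to 11.58 on all arrays and the leukocyte marker Ptprc at 2.24 to 2.72, while the epithelial marker Epcam was low, at 4.95 to 5.80.

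**Figure D1:**
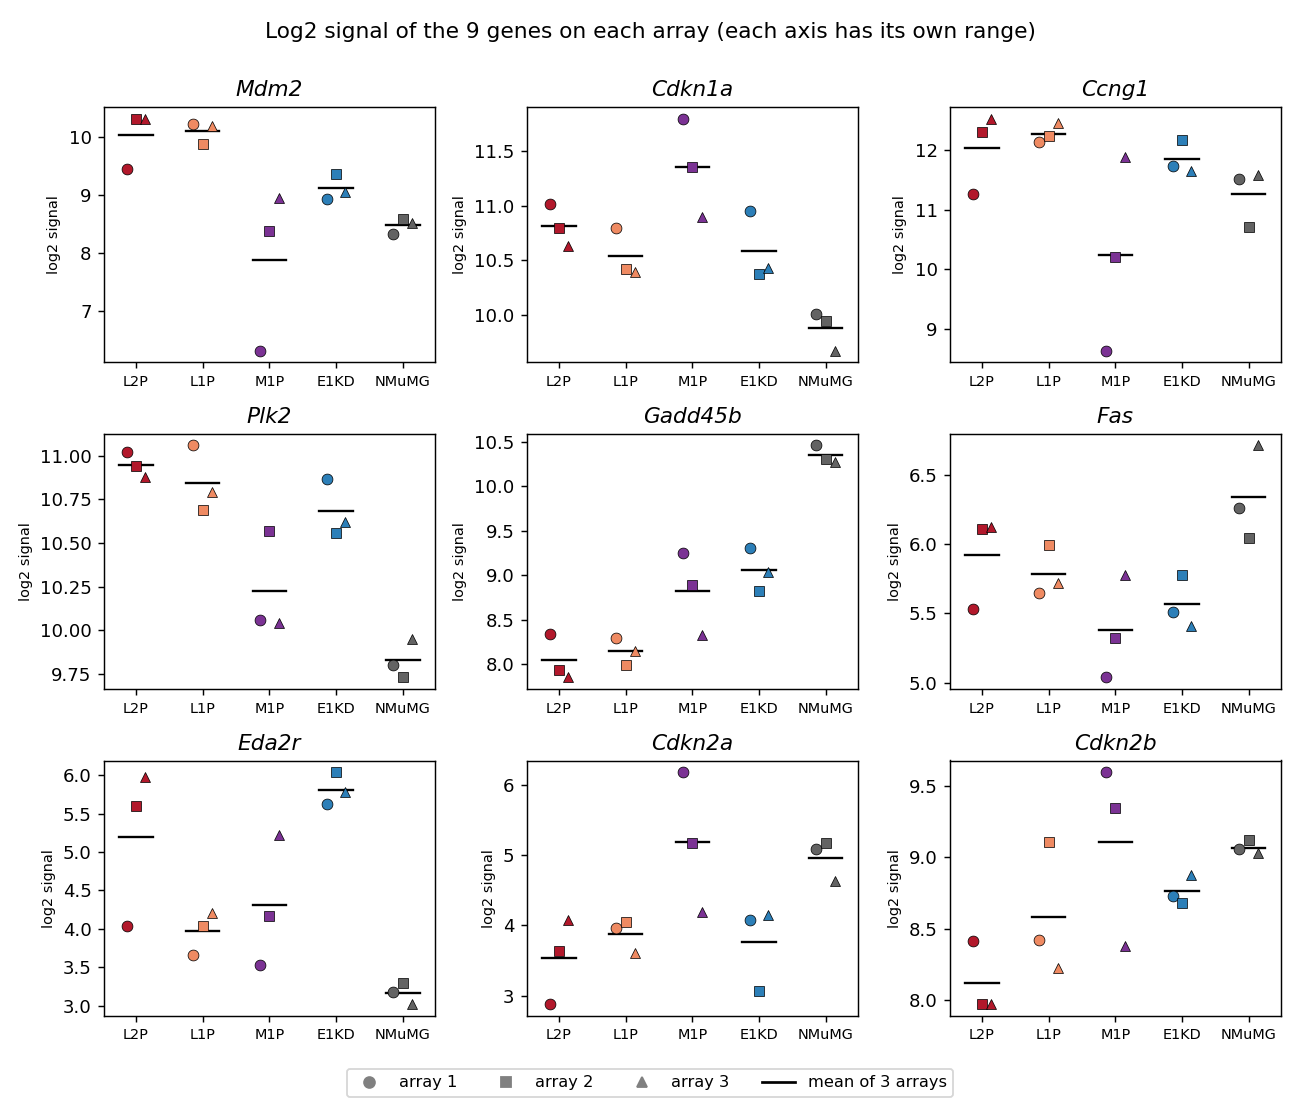
Log2 signal of the 9 measured genes on every array, with lines from left to right as L2P, L1P, M1P, E1KD and NMuMG. Symbols mark arrays 1, 2 and 3, the bar is the mean of 3 arrays, and each panel has its own axis range. Cdkn1a, Plk2 and Eda2r lie above NMuMG, and Gadd45b below NMuMG, on all 12 arrays of silenced lines, and M1P spreads most for Mdm2 and Ccng1.

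Of the 9 genes, 7 differed among the 5 lines by the moderated F test at an adjusted p under 0.05, against 31.8% of all genes. The exceptions were Ccng1, with an adjusted p of 0.0817, and Cdkn2b, with 0.0632. The smallest adjusted p was that of Gadd45b, at 3.06e-05. The 9 genes were chosen with earlier results of these data known. Their counts, here and by comparison below, are therefore descriptions and no test of the set against all genes.

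Mdm2, the ubiquitin ligase for p53, was highest in the lung lines. Its log2 signal was 9.45, 10.31 and 10.30 in L2P, 10.21, 9.88 and 10.19 in L1P, 6.32, 8.38 and 8.95 in M1P, 8.93, 9.36 and 9.04 in E1KD, and 8.33, 8.58 and 8.51 in NMuMG. Every lung line array lay above every array of M1P, E1KD and NMuMG, and M1P array 1 lay far below the rest. Mdm2 rose by 2.21 ± 0.49 in L1P over M1P (SE, adjusted p = 0.00722), by 2.13 in L2P over M1P (adjusted p = 0.0102) and by 1.62 in L1P over NMuMG (adjusted p = 0.0409). The difference of L2P over NMuMG was 1.54 with an adjusted p of 0.052. Ordered by mean ± SD over the 3 arrays, the lines ran L1P (10.10 ± 0.18), L2P (10.02 ± 0.49), E1KD (9.11 ± 0.22), NMuMG (8.48 ± 0.13) and M1P (7.88 ± 1.38), and no neighbours in this order passed, with adjusted p between 0.435 and 1. Against E1KD the difference was 0.90 in L2P and 0.98 in L1P, with adjusted p of 0.579 and 0.561 when the M1P arrays shared in the estimate of spread. Without the M1P arrays the same differences had adjusted p of 0.0208 and 0.0173. That setting, used for other genes below too, was chosen after seeing the data and removes the line of widest scatter. Without M1P arrays 1 and 2 the rise of L2P over M1P was 1.07 (adjusted p = 0.0563), and that of L1P over M1P was 1.15 (adjusted p = 0.0394). The L1P rise over NMuMG was lost when single arrays were left out, each of the 3 NMuMG, 3 E1KD and 3 L1P arrays and L2P arrays 2 and 3, with adjusted p of at most 0.122.

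The second Mdm2 probe set, 1427718_a_at, had log2 signals of 8.65, 9.17 and 9.17 in L2P, 9.06, 8.71 and 9.09 in L1P, 5.18, 7.62 and 8.18 in M1P, 8.14, 8.28 and 8.09 in E1KD, and 7.43, 7.59 and 7.68 in NMuMG. It gave the same order of lung lines over E1KD over NMuMG with no overlap of arrays, and it rose by 1.96 in L1P over M1P in the fit over all 34945 probe sets (adjusted p = 0.0183) and by 2.00 in L2P over M1P (adjusted p = 0.0213). Its differences over NMuMG, 1.43 in L2P and 1.39 in L1P, did not pass (adjusted p = 0.11 and 0.115). The third, 1457929_at, lay below the array median on all 15 arrays and differed by at most 0.14 between the lines compared with E1KD.

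**Figure D2:**
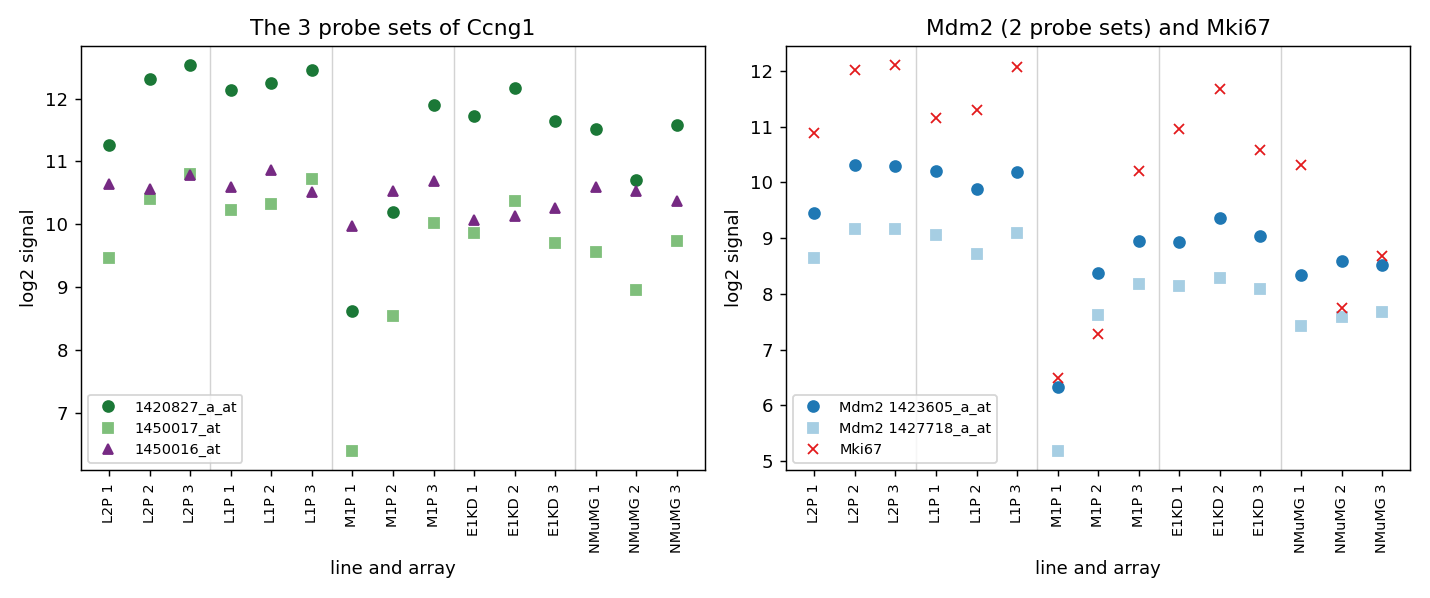
Log2 signals on each array, lines from left to right as L2P, L1P, M1P, E1KD and NMuMG, for the 3 probe sets of Ccng1 (left) and for 2 probe sets of Mdm2 beside the proliferation gene Mki67 (right). Ccng1 probe sets 1420827_a_at and 1450017_at drop on M1P arrays 1 and 2 while 1450016_at stays between 9.97 and 10.69 in M1P, and Mdm2 and Mki67 are both lowest on M1P array 1. Vertical distance between probe sets is not a difference in level.

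Cdkn1a encodes p21, which blocks cyclin-dependent kinases and so holds cells out of S phase. The arrays gave log2 signals of 11.02, 10.80 and 10.63 in L2P, 10.80, 10.42 and 10.39 in L1P, 11.80, 11.36 and 10.90 in M1P, 10.95, 10.37 and 10.43 in E1KD, and 10.01, 9.94 and 9.67 in NMuMG. All 12 arrays of silenced lines lay above the 3 NMuMG arrays, and the M1P arrays were high, with array 3 within the range of E1KD. Cdkn1a rose by 1.48 ± 0.23 in M1P over NMuMG (SE, adjusted p = 0.00085) and by 0.94 ± 0.23 in L2P over NMuMG (adjusted p = 0.0122). The differences of 0.71 in E1KD and 0.66 in L1P over NMuMG had adjusted p of 0.0696 and 0.0697, and 0.0147 and 0.0164 without the M1P arrays. Cdkn1a rose by 0.77 ± 0.23 in M1P over E1KD (adjusted p = 0.0288) and fell by 0.82 ± 0.23 in L1P relative to M1P (adjusted p = 0.0173). Both calls were lost without M1P array 1, at 0.54 (adjusted p = 0.115) and -0.59 (adjusted p = 0.0689), the first also without E1KD array 2 or 3 and the second without L1P array 2 or 3. The L2P rise over NMuMG had an adjusted p of 0.057 without NMuMG array 3. Ordered by mean the lines ran M1P (11.35 ± 0.45), L2P (10.82 ± 0.19), E1KD (10.58 ± 0.32), L1P (10.53 ± 0.23) and NMuMG (9.87 ± 0.18), with no neighbours passing.

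The second Cdkn1a probe set, 1421679_a_at, gave 10.10, 9.81 and 9.85 in L2P, 9.80, 9.41 and 9.26 in L1P, 10.91, 10.45 and 9.78 in M1P, 9.67, 9.26 and 9.37 in E1KD, and 9.03, 9.04 and 8.77 in NMuMG. Again every silenced array lay above NMuMG. It rose by 0.94 in M1P over E1KD (adjusted p = 0.0195) and fell by 0.89 in L1P relative to M1P (adjusted p = 0.0174).

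Cdkn2a encodes an inhibitor of Cdk4 and Cdk6 and, in another reading frame, the Arf protein that binds Mdm2; its single probe set was not separated here by transcript. Its log2 signal was 2.88, 3.64 and 4.07 in L2P, 3.96, 4.05 and 3.60 in L1P, 6.18, 5.17 and 4.19 in M1P, 4.08, 3.06 and 4.15 in E1KD, and 5.08, 5.17 and 4.63 in NMuMG. The signal was low throughout, below the array median on 10 of 15 arrays, and the M1P and NMuMG arrays lay above all arrays of L2P, L1P and E1KD. Cdkn2a rose by 1.42 ± 0.45 in M1P over E1KD (SE, adjusted p = 0.035). It fell by 1.31 in L1P (adjusted p = 0.0362) and by 1.65 in L2P (adjusted p = 0.0192) relative to M1P, and by 1.43 in L2P relative to NMuMG (adjusted p = 0.0479). The 3 calls that involve M1P were lost without M1P arrays 1 and 2, where the differences were 0.43 in M1P over E1KD, -0.32 in L1P and -0.66 in L2P relative to M1P, with adjusted p of at least 0.432. They were also lost without M1P array 1 alone, at 0.92, -0.81 and -1.15, with adjusted p of 0.145, 0.158 and 0.0714. The rise over E1KD was also lost without M1P array 2 or any 1 of the E1KD arrays, the L1P fall without M1P array 2 or any 1 of the L1P arrays, and the L2P fall without L2P array 2. The L2P fall relative to NMuMG was lost without any 1 of the NMuMG or L1P arrays, E1KD array 1 or 3, M1P array 2, or L2P array 1 or 2 (adjusted p at most 0.143). In the other direction, E1KD was 1.20 below NMuMG with an adjusted p of 0.124, and of 0.0208 without the M1P arrays. The line means ran M1P (5.18 ± 1.00), NMuMG (4.96 ± 0.29), L1P (3.87 ± 0.24), E1KD (3.76 ± 0.61) and L2P (3.53 ± 0.60), and no neighbours passed.

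Cdkn2b, its neighbour, encodes an inhibitor of the same kinases that TGF-beta is known to induce in epithelial cells. Its log2 signal was 8.41, 7.97 and 7.97 in L2P, 8.42, 9.11 and 8.22 in L1P, 9.60, 9.35 and 8.38 in M1P, 8.73, 8.68 and 8.88 in E1KD, and 9.06, 9.12 and 9.03 in NMuMG. The L2P arrays lay below those of E1KD and NMuMG without overlap, while M1P spanned both sides of them. Cdkn2b fell by 0.95 ± 0.28 in L2P relative to NMuMG (SE, adjusted p = 0.0389) and by 0.99 in L2P relative to M1P (adjusted p = 0.0238). Relative to E1KD the L2P difference was -0.65 (adjusted p = 0.376), and the lines ran M1P (9.11 ± 0.65), NMuMG (9.07 ± 0.05), E1KD (8.76 ± 0.10), L1P (8.58 ± 0.47) and L2P (8.12 ± 0.26) with no neighbours passing. The fall relative to M1P was lost without M1P array 1 (-0.75, adjusted p = 0.0934), M1P array 2, L2P array 2 or L2P array 3. That relative to NMuMG was lost without any 1 of the NMuMG or E1KD arrays, without L1P array 1 and without L2P array 2 or 3, with adjusted p of at most 0.139.

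Ccng1 encodes cyclin G1, a p53 target that takes part in the feedback on Mdm2. On its probe set 1420827_a_at the log2 signal was 11.26, 12.31 and 12.53 in L2P, 12.14, 12.24 and 12.45 in L1P, 8.63, 10.20 and 11.89 in M1P, 11.73, 12.17 and 11.65 in E1KD, and 11.52, 10.70 and 11.58 in NMuMG. M1P arrays 1 and 2 lay below every other array, and M1P array 3 within the range of E1KD. Ccng1 rose by 2.04 ± 0.60 in L1P over M1P (SE, adjusted p = 0.0221) and by 1.79 in L2P over M1P (adjusted p = 0.0413). Without M1P arrays 1 and 2 the differences were 0.39 (adjusted p = 0.632) and 0.14 (adjusted p = 0.895). Without M1P array 1 alone they were 1.23 (adjusted p = 0.0776) and 0.98 (adjusted p = 0.162), the first was also lost without L1P array 2 or 3, and the second without any 1 of 12 arrays in all. The line means ran L1P (12.28 ± 0.16), L2P (12.03 ± 0.68), E1KD (11.85 ± 0.28), NMuMG (11.27 ± 0.49) and M1P (10.24 ± 1.63), and no neighbours passed.

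The 3 probe sets of Ccng1 did not move alike. Probe set 1450017_at had log2 signals of 6.40, 8.55 and 10.02 on M1P arrays 1, 2 and 3, against 9.86, 10.37 and 9.70 in E1KD, the same low M1P arrays as the first. Probe set 1450016_at had 9.97, 10.53 and 10.69 in M1P, against 10.07, 10.14 and 10.26 in E1KD. M1P array 1 was the lowest of all arrays on it. The M1P mean was 10.4, above E1KD at 10.16 and below NMuMG at 10.5, L1P at 10.66 and L2P at 10.67. In L1P over M1P, 1450017_at rose by 2.10 (adjusted p = 0.0293) and 1450016_at differed by 0.27 ± 0.17 (SE, adjusted p = 0.207). In E1KD relative to NMuMG the signs differed too, at 0.56 and -0.34, with neither passing (adjusted p = 0.70 and 0.287).

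Plk2, a polo-like kinase of centriole duplication and a p53 target, lay above NMuMG on every array of the silenced lines. Signals were 11.02, 10.94 and 10.88 in L2P, 11.06, 10.69 and 10.79 in L1P, 10.06, 10.57 and 10.04 in M1P, 10.87, 10.56 and 10.62 in E1KD, and 9.80, 9.73 and 9.95 in NMuMG. M1P was the lowest of the 4 silenced lines, and its difference of 0.40 over NMuMG did not pass (adjusted p = 0.116). Plk2 rose by 0.86 ± 0.16 in E1KD over NMuMG (SE, 1.81-fold, adjusted p = 0.00311), a call kept under all 26 alternatives. It also rose by 1.12 in L2P (adjusted p = 0.000258) and by 1.02 in L1P (adjusted p = 0.000585) over NMuMG, and by 0.62 in L1P (adjusted p = 0.0122) and by 0.72 in L2P (adjusted p = 0.008) over M1P. In M1P it fell by 0.46 ± 0.16 relative to E1KD (adjusted p = 0.0452), which no longer held without any 1 of the 3 NMuMG and 3 E1KD arrays, M1P array 1 or 3, L1P array 2 or 3, or L2P array 2 or 3 (adjusted p at most 0.156). The lines ran L2P (10.95 ± 0.07), L1P (10.85 ± 0.19), E1KD (10.68 ± 0.16), M1P (10.22 ± 0.30) and NMuMG (9.83 ± 0.11), and of the neighbours only E1KD and M1P passed. The other Plk2 probe set, 1443780_at, lay below the array median on all 15 arrays.

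Gadd45b, a stress-induced gene of growth arrest that TGF-beta and NF-kappa-B are also known to induce, ran the opposite way. The arrays gave log2 signals of 8.34, 7.93 and 7.85 in L2P, 8.29, 7.99 and 8.15 in L1P, 9.25, 8.89 and 8.33 in M1P, 9.31, 8.82 and 9.03 in E1KD, and 10.46, 10.31 and 10.27 in NMuMG. All 12 silenced arrays lay below NMuMG, and the 6 lung line arrays lay below those of E1KD. Gadd45b fell by 1.29 ± 0.21 in E1KD relative to NMuMG (SE, 2.45-fold, adjusted p = 0.00166), a call kept under all 26 alternatives. Relative to NMuMG it fell by 2.30 in L2P (4.93-fold, adjusted p = 8.11e-06), by 2.20 in L1P (adjusted p = 1.3e-05) and by 1.52 in M1P (adjusted p = 0.00042). Relative to E1KD it fell by 1.01 ± 0.21 in L2P (adjusted p = 0.0154) and by 0.91 ± 0.21 in L1P (adjusted p = 0.039). The L2P call was lost without E1KD array 1 or 3 or without L2P array 2 or 3, with adjusted p of at most 0.0805. The L1P call passed under 12 of 26 alternatives and was lost without any 1 of the NMuMG, E1KD or L1P arrays, M1P array 2, or L2P array 2 or 3 (adjusted p at most 0.176), while without the M1P arrays it was 0.00429.

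Relative to M1P, Gadd45b fell by 0.68 in L1P (adjusted p = 0.0274) and by 0.78 in L2P (adjusted p = 0.0202). With M1P arrays 1 and 2 left out these were -0.19 and -0.29, with adjusted p of 0.653 and 0.497, and without M1P array 1 alone -0.47 and -0.57, with adjusted p of 0.114 and 0.0774. The L1P fall was also lost without M1P array 2 or L1P array 2 or 3, and the L2P fall without L2P array 2 or 3. The lines ran NMuMG (10.34 ± 0.10), E1KD (9.06 ± 0.25), M1P (8.82 ± 0.46), L1P (8.14 ± 0.15) and L2P (8.04 ± 0.26), with NMuMG and E1KD, and M1P and L1P, passing as neighbours. Probe set 1449773_s_at gave falls of 1.24 in E1KD relative to NMuMG (adjusted p = 0.00161), 1.17 in L1P (adjusted p = 0.00604) and 1.50 in L2P (adjusted p = 0.000715) relative to E1KD. On probe set 1420197_at the differences were -1.08, -0.60 and -0.37, and none passed (adjusted p = 0.0517, 0.65 and 0.904).

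Fas encodes the death receptor whose ligand triggers caspase-mediated apoptosis. The arrays gave log2 signals of 5.53, 6.11 and 6.12 in L2P, 5.65, 5.99 and 5.72 in L1P, 5.04, 5.32 and 5.78 in M1P, 5.51, 5.78 and 5.41 in E1KD, and 6.26, 6.04 and 6.71 in NMuMG. Every array of L1P, M1P and E1KD lay below NMuMG, while L2P arrays 2 and 3 lay within the NMuMG range. Fas fell by 0.77 ± 0.23 in E1KD (SE, adjusted p = 0.0492) and by 0.96 in M1P (adjusted p = 0.0155) relative to NMuMG. The E1KD call passed under 12 of 26 alternatives and was lost without any E1KD array, NMuMG array 1 or 3, M1P array 2, any L1P array, or L2P array 2 or 3, with adjusted p of at most 0.192. The M1P call was lost without M1P array 1 (-0.79, adjusted p = 0.0511) or NMuMG array 3 (-0.77, adjusted p = 0.0811). The lines ran NMuMG (6.34 ± 0.34), L2P (5.92 ± 0.33), L1P (5.79 ± 0.18), E1KD (5.57 ± 0.19) and M1P (5.38 ± 0.37), and no neighbours passed.

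Eda2r encodes a receptor of the TNF receptor family for the A2 form of ectodysplasin and is a p53 target. Its log2 signal was 4.03, 5.60 and 5.97 in L2P, 3.66, 4.04 and 4.21 in L1P, 3.53, 4.17 and 5.22 in M1P, 5.62, 6.04 and 5.78 in E1KD, and 3.18, 3.29 and 3.02 in NMuMG. All 12 silenced arrays lay above NMuMG, and the signal was below the array median on 8 of 15 arrays, all 3 NMuMG arrays included. Eda2r rose by 2.65 ± 0.45 in E1KD over NMuMG (SE, 6.28-fold, adjusted p = 0.00212) and by 2.04 in L2P over NMuMG (adjusted p = 0.00779), both kept under every alternative. It fell by 1.51 ± 0.45 in M1P relative to E1KD (adjusted p = 0.0309), which was lost without M1P array 1 (-1.12, adjusted p = 0.126), M1P array 2 or any 1 of the E1KD arrays. In L1P relative to E1KD the difference was -1.84 without overlap of arrays, with an adjusted p of 0.0527, and of 0.0121 without the M1P arrays.

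The lung lines differed most in Eda2r, where L2P was 1.23 ± 0.45 above L1P (SE, unadjusted p = 0.018, adjusted p = 1). L2P array 1, at 4.03, lay within the L1P range of 3.66 to 4.21, and L2P arrays 2 and 3 lay above it. Without L2P array 1 the difference was 1.81 (adjusted p = 0.149). Without that array and the M1P arrays the limma adjusted p was 0.000662. That setting was chosen after seeing the data and removes the only L2P array within the L1P range, so it is no test of the difference. The same array was also the lowest of L2P for Mdm2, Cdkn2a, Ccng1 and Fas, and its part in these results was not tested further. The Eda2r means ran E1KD (5.81 ± 0.21), L2P (5.20 ± 1.03), M1P (4.31 ± 0.86), L1P (3.97 ± 0.28) and NMuMG (3.16 ± 0.14), and no neighbours passed.

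**Figure D3:**
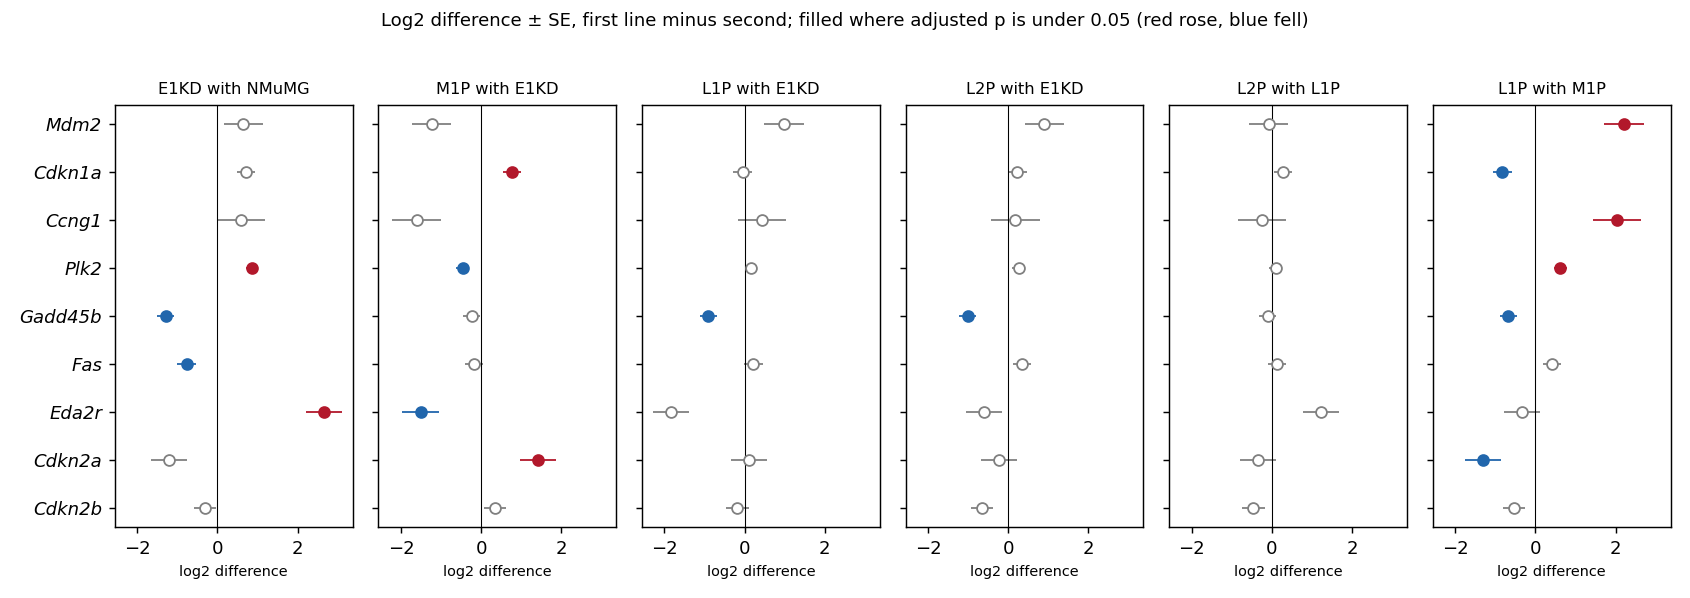
Log2 difference with its SE (horizontal axis) of the 9 genes in 6 comparisons, first line minus second. Filled points passed at an adjusted p under 0.05, red where the first line was higher and blue where it was lower, and open points did not pass. Eda2r in E1KD with NMuMG, at 2.65, is the largest difference, and L2P with L1P has no filled point.

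Counted by comparison, silencing of hnRNP E1 went with changes in 4 of the 9 genes: Plk2 and Eda2r rose, and Fas and Gadd45b fell, in E1KD relative to NMuMG, against 9.49% of all genes called, 3% risen and 6.49% fallen. Without the M1P arrays, 6 of the 9 passed, with Cdkn1a also risen and Cdkn2a also fallen, against 19% of all genes. That setting was chosen after seeing the data and leaves out the line of widest scatter. All 9 members passed a filter of log2 signal of at least 5 on at least 3 arrays, against 10474 of the 18193 genes. The shares of all genes in these counts include the genes of lower signal, and shares among the genes kept are not given here.

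In M1P relative to E1KD, Cdkn1a and Cdkn2a rose and Eda2r and Plk2 fell, 4 of 9 genes, against 27.6% of all genes (17.7% risen, 9.86% fallen). With M1P arrays 1 and 2 left out, none of the 9 passed by limma, against 4.45% of all genes, and 2 had an unadjusted p under 0.05. That leaves 1 M1P array, assumed to vary like the arrays of the other lines. In L1P relative to M1P, Mdm2, Ccng1 and Plk2 rose and Cdkn1a, Cdkn2a and Gadd45b fell, 6 of 9 genes, against 39.5% of all genes (13.6% risen, 25.9% fallen). With those arrays left out 2 passed, Mdm2 and Plk2, against 7.29% of all genes. In L2P relative to M1P, Mdm2, Ccng1 and Plk2 rose and Cdkn2a, Cdkn2b and Gadd45b fell, 6 of 9 genes, against 30.4% of all genes (11.1% risen, 19.2% fallen). There 1 passed with M1P arrays 1 and 2 left out, Plk2, at 0.90 (adjusted p = 0.0129), against 6.28% of all genes, and 2 passed without M1P array 1 alone, Mdm2 and Plk2.

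In the lung lines relative to E1KD, Gadd45b fell in both, 1 of 9 genes each, against 3.78% of all genes in L2P (2.14% risen, 1.64% fallen) and 2.48% in L1P (1.19% risen, 1.29% fallen). Without the M1P arrays, Mdm2 also rose in both and Eda2r also fell in L1P, against 7.43% of all genes in L2P and 5.45% in L1P. In L2P relative to L1P none of the 9 passed by limma, against 0.143% of all genes, and 1 of the 9, Eda2r, had an unadjusted p under 0.05. Relative to NMuMG, 6 of 9 genes passed in L2P, 3 risen and 3 fallen, against 14.2% of all genes (5.56% risen, 8.68% fallen). The count was 3 of 9 without NMuMG array 3, where Cdkn1a, Cdkn2a and Cdkn2b had adjusted p of 0.057, 0.0684 and 0.0874. It was 7 of 9 without the M1P arrays, with Mdm2 also risen, against 24.6% of all genes. In L1P 2 rose and 1 fell, 3 of 9, against 14.8% of all genes (5.02% risen, 9.76% fallen), and 6 of 9 without the M1P arrays, with Cdkn1a and Ccng1 also risen and Cdkn2a also fallen, against 26.8% of all genes. In M1P 1 rose and 2 fell, 3 of 9, against 11.8% of all genes (7.28% risen, 4.56% fallen). These comparisons share arrays, so their counts are not independent.

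**Figure D4:**
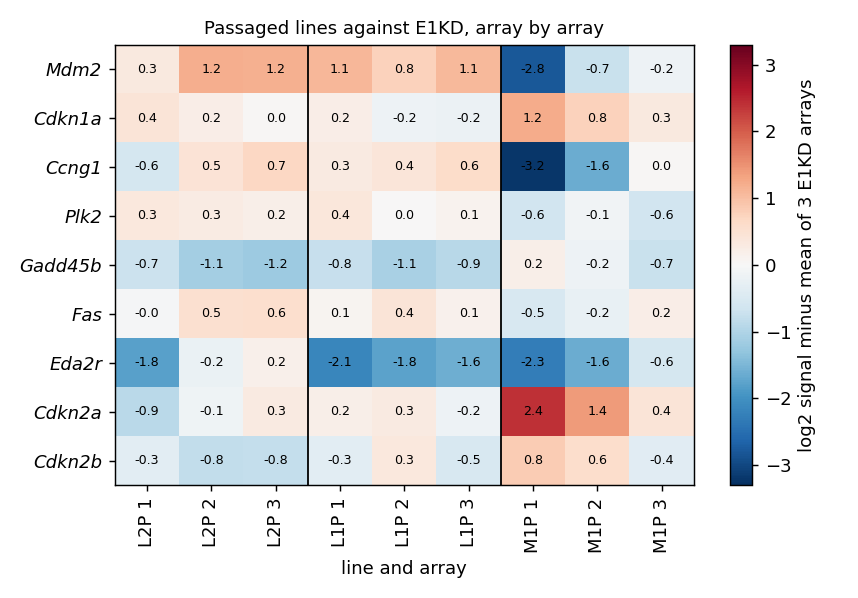
Log2 signal of each gene on each array of L2P, L1P and M1P minus the mean of the 3 E1KD arrays, printed to 1 decimal and coloured red above and blue below. Gadd45b is below the E1KD mean on all 6 lung line arrays and Mdm2 above it on all 6. For Ccng1, M1P array 1 is at -3.22 and M1P array 3 at 0.04.

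The array-by-array differences show where lines rest on single arrays. For Mdm2 the L2P and L1P arrays were 0.33 to 1.20 above the E1KD mean, and M1P arrays 1, 2 and 3 were -2.79, -0.74 and -0.16 from it. For Ccng1 the M1P arrays were -3.22, -1.65 and 0.04 from the E1KD mean, and for Cdkn2a 2.42, 1.40 and 0.43. In these 3 genes M1P array 1 was farthest from E1KD and array 3 nearest. The same order held for Cdkn1a, Eda2r, Fas and Cdkn2b. It did not hold for Gadd45b, at 0.19, -0.17 and -0.73, or for Plk2, at -0.62, -0.11 and -0.64, where array 3 was farthest. Mki67 was also lowest on M1P array 1, and its part in these results was not tested.

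Other genes, of the pathway or related to the members, were counted from 10 lists with 98 measured genes, chosen with earlier results of these data known. The 98 include 14 proliferation markers, 5 genes of ectodysplasin signalling and 3 that lie beside Cdkn2a and Cdkn2b, so their shares are not those of p53 genes alone. In E1KD relative to NMuMG, 5 of the 98 rose and 6 fell, 11.2%, a share near the 9.49% of all genes. Without the M1P arrays 19 passed, 19.4%, against 19% of all genes. Of 16 regulators and relatives of p53, Rchy1, a ubiquitin ligase for p53, rose by 0.57 (adjusted p = 0.0107) and Kat5, an acetyltransferase of p53, fell by 0.68 (adjusted p = 0.0415). Their median difference was 0.25, against -0.07 over all genes. Of 21 targets in arrest, repair and metabolism, Ak1, adenylate kinase, rose by 2.20 (adjusted p = 2.26e-05) and Ei24 fell by 0.56 (adjusted p = 0.0206). Of 9 targets in cell death, 3 fell and none rose: Tnfrsf10b, a death receptor, by 0.84 (adjusted p = 0.0145), Siva1 by 0.70 (adjusted p = 0.00819) and Bid by 0.52 (adjusted p = 0.0306). Among 15 cyclins, kinases and Rb family genes, 3 rose and 1 fell, with Ccnd2, cyclin D2, up by 1.68 (adjusted p = 0.0107). Without the M1P arrays this list had 6 rises and 1 fall, and the regulators 3 rises and 1 fall. Of the 14 proliferation markers 2 rose in that fit, Mki67 and Rrm2, with a list median of -0.01, against -0.07 over all genes. Their part in the members' values was not tested. None of 5 other inhibitors of cyclin-dependent kinases passed by limma, and 0 of them had an unadjusted p under 0.05.

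In M1P relative to E1KD, 17 of the 98 genes rose and 16 fell, 33.7%, against 27.6% of all genes (17.3% risen and 16.3% fallen, against 17.7% and 9.86%). With M1P arrays 1 and 2 left out 9 passed, 9.2%, against 4.45%. The regulators of p53 had 2 rises and 4 falls and a median of -0.84, against 0.2 over all genes. Usp7, a deubiquitinase of Mdm2 and p53, fell by 1.78 (adjusted p = 0.00977), and Trp53bp1, a repair protein that binds p53, fell by 1.68 (adjusted p = 0.00579). Of the 21 targets in arrest, repair and metabolism 6 rose and 1 fell, with a median of 0.33. Ak1 rose by 1.55 (adjusted p = 0.000976), Btg2, an antiproliferative gene, rose by 1.00 (adjusted p = 0.0232), and Polk, a DNA polymerase that copies past lesions, fell by 1.73 (adjusted p = 0.0498). Of 5 other kinase inhibitors 3 rose, among them Cdkn2d by 0.86 (adjusted p = 0.0128). In the cell death list, 2 rose and 2 fell: Pidd1 rose by 0.79 (adjusted p = 0.00685), while Pmaip1, which encodes Noxa, fell by 1.45 (adjusted p = 0.0324). Of 14 proliferation markers 1 rose and 3 fell, and Mki67 fell by 3.09 (adjusted p = 0.0205). Without M1P arrays 1 and 2, the regulators had 1 rise and 2 falls with a median of -0.35, the arrest list 1 rise and 1 fall with a median of 0.08, against 0.07 over all genes, the cell death list and the proliferation markers had 0 passing genes, and 1 other kinase inhibitor passed, Cdkn3. Of 6 alveolar and airway markers 2 rose in M1P, with Foxj1 up by 1.99 (adjusted p = 0.00397). The other, Ager, rose by 0.46 (adjusted p = 0.0395). The mean log2 signal of the 6 markers was 4.66 to 5.39 on M1P arrays, against at most 4.46 on the others. Whether any such cells were present, and any part of them in the members' values, was not tested. Of the other marker lists, 1 of 7 epithelial, 1 of 8 leukocyte and 1 of 6 endothelial genes rose. None of 8 fibroblast genes passed by limma, with 5 at an unadjusted p under 0.05. The median differences of these lists were 0.26, 0.31, 0.12 and 0.3 in this order, against 0.2 over all genes. Without M1P arrays 1 and 2 they were 0.1, 0.13, 0.08 and 0.26, against 0.07. From RNA of whole cultures, fewer cells of a type and less RNA per cell cannot be told apart.

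In L1P relative to M1P, 31 of the 98 rose and 20 fell, 52.0%, against 39.5% of all genes (31.6% risen and 20.4% fallen, against 13.6% and 25.9%). With M1P arrays 1 and 2 left out 8 passed, 8.2%, a share near the 7.29% of all genes. Of the 16 regulators 9 rose and 4 fell, with a median of 1.01, against -0.25 over all genes, and Atr, a kinase upstream of p53, rose by 2.77 (adjusted p = 0.0191). Pmaip1 rose by 2.09 (adjusted p = 0.00593) and Pidd1 fell by 0.79 (adjusted p = 0.00472). Without those arrays the regulators had 3 rises and 1 fall with a median of 0.48, against -0.10 over all genes, and the passing genes were Ppm1d, Rchy1, Trp53bp1 and Usp7. In the cell death list Apaf1 and Perp passed, and Atr, Pmaip1 and Pidd1 did not pass. Of the marker lists, 3 of 6 alveolar and airway, 3 of 8 fibroblast and 3 of 8 leukocyte genes fell in L1P relative to M1P. Of 14 proliferation genes 4 rose. The median differences were -0.46, -0.35, -0.28 and 0.16 in this order, against -0.25 over all genes. Without M1P arrays 1 and 2 they were -0.33, -0.25, -0.17 and 0.24, against -0.10. The part of these marker genes in the members' values was not tested.

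Between the lung lines and E1KD few of the listed genes passed. In L1P 1 of the 98 passed, 1.0%, against 2.48% of all genes: Ccne1, cyclin E1, which fell by 0.65 (adjusted p = 0.026), and 11 had an unadjusted p under 0.05. In L2P 1 of the 98 passed, 1.0%, against 3.78% of all genes: Mtap, a neighbour of Cdkn2a on chromosome 4, which rose by 0.79 (adjusted p = 0.0181), and 11 had an unadjusted p under 0.05. Without the M1P arrays 5 passed in L2P, Aen, Tigar, Cdkn3, Mtap and Mcm5, 5.1% against 7.43% of all genes, and 4 in L1P, Cdkn3, Ccne1, Cdk4 and Mtap, 4.1% against 5.45%. All 9 cell death targets were higher in both lung lines than in E1KD, with medians of 0.3 in L2P and 0.34 in L1P, against 0 and -0.03 over all genes, and none passed; both comparisons use the same E1KD arrays. In L2P relative to L1P, none of the 98 passed by limma and 2 had an unadjusted p under 0.05.

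For each member that differed among the 5 lines and whose line means spanned at least 1, the genes of closest pattern were sought by the root mean square difference between line means, each centred on its own mean, over 5 lines. For Mdm2 the nearest were Tdrd3, at 0.02, and Tstd3, at 0.07, and for Cdkn1a Klrg2, at 0.04, and Eml2, at 0.05. For Plk2 they were Gpt2 and Ctr9, both at 0.06, for Gadd45b Lmx1a, at 0.06, and A730020M07Rik, at 0.07, and for Cdkn2a BC080696 and Yipf2, both at 0.12. Eda2r had no close match, since the nearest gene, Tceal8, was at 0.27 and the next, Vcam1, at 0.43. With 5 points per gene and 18193 genes, close matches are descriptions of these lines.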

How the data were processed

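Total RNA was extracted and hybridised to Affymetrix 3' mouse expression arrays from 5 lines, 3 arrays each, per the labels' protocols. The authors deposited 1 table of log2 signals for 45101 probe sets. The submitters' processing notes name RMA, MAS5 and Affymetrix Expression Console, without versions or roles. The log2 values ran from 1.53 to 14.68, with array medians of 4.17 to 4.26, and were used as deposited. Background cannot be assessed per array from these values, and differences of low signals may be understated; 3 arrays a line limit the precision.

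The platform annotation supplied the gene names: 34945 probe sets had 1 symbol, 932 several, 9160 none and 64 were controls. Symbols were updated through Entrez IDs for 34741, and 204 kept the platform's. The probe set of highest mean stood for each of 18193 genes. limma 3.58.1 in R 4.3.3 fitted 1 coefficient per line, with moderated two-sided tests and Benjamini-Hochberg adjustment over all genes at 0.05. The script was tested on simulated data in which each gene had the same spread in all lines. That test does not cover the wider scatter of the M1P arrays. Alternatives were quantile normalization, the most variable probe set, all probe sets, a filter (log2 signal of at least 5 on at least 3 arrays), array weights, a variance trend, only the 2 lines compared, a replicate block, and leaving out arrays.

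The members and gene lists were chosen with earlier results of these data known. All 10 members were named. From each list, the passing genes of largest change were named, at most 2 in each direction, and the 2 genes of closest pattern for each of the 6 members that passed the F test with line means spanning at least 1. Bid was named after its values were seen, to complete a count of 3. Promoter sequences are from RefSeq (GRCm38.p6). No genome build is given in the sources used here for the arrays.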

Additional observations from a re-analysis of the deposited data

How the results depend on the processing

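Each of 90 differences, 9 genes in 10 comparisons, was recomputed under the alternatives, and 34 had passed. No passing difference changed sign. Of 2268 alternative values 1985 kept their side of the threshold, 177 lost a call and 106 gained one.

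The number of the 9 genes passing in E1KD relative to NMuMG was 4. It was 7 with array weights, with only the 2 lines fitted, and without M1P and L2P array 1, and 3 to 6 when single arrays were left out. In M1P relative to E1KD it was 4, and 0 by limma with array weights, with only the 2 lines, and without M1P arrays 1 and 2, where 1, 3 and 2 had an unadjusted p under 0.05. Leaving out single arrays gave 0 to 6, with 0 without M1P array 1 or E1KD array 2 or 3. In L1P relative to E1KD it was 1, against 0 with all probe sets (2 at an unadjusted p under 0.05), 2 with the low signal filter or the replicate block, and 3 with array weights, only the 2 lines, without M1P arrays 1 and 2, without M1P, or without M1P and L2P array 1. Single arrays gave 0 to 3. In L2P relative to E1KD it was 1, against 2 without M1P or without M1P arrays 1 and 2, 3 without M1P and L2P array 1, and 4 with array weights, and single arrays gave 0 to 2. In L2P relative to L1P it was 0, and 1 with array weights or without M1P and L2P array 1. In L1P relative to M1P it was 6, against 1 with array weights, 0 with only the 2 lines (6 at an unadjusted p under 0.05), 2 without M1P arrays 1 and 2, and 2 to 8 when single arrays were left out. In L2P relative to M1P it was 6, against 1 with array weights or without M1P arrays 1 and 2, 0 by limma with only the 2 lines (5 at an unadjusted p under 0.05), and 2 to 9 without single arrays. Relative to NMuMG, single arrays gave 3 to 7 in L2P, 2 to 5 in L1P and 2 to 5 in M1P. The cause of these shifts was not tested.

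Leaving out M1P, alone or with L2P array 1, was chosen after seeing the data. In comparisons that do not involve M1P, leaving out M1P and leaving out M1P arrays 1 and 2 gave the same values. There they are the same alternative, though each is counted among the 26. The array weights fit stopped before convergence. The labels do not say whether replicate numbers mark arrays handled together. Of 30 same-numbered pairs 16 had a correlation of deviations above 0.1, from -0.5 to 0.75. The median was 0.11, against -0.08 for pairs of other numbers, so a shared handling of some arrays remains possible. Under the replicate block 6 genes passed in M1P relative to E1KD, 5 in E1KD relative to NMuMG and 2 in L1P relative to E1KD, while Cdkn2a in L2P relative to NMuMG lost its call (adjusted p = 0.0568). Signals of Cdkn2a and Eda2r near or under the array median limit what their differences can show.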
